A study of Mus musculus with 4 samples.

Results

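The transcripts of 10 genes of the p53 pathway and of cell cycle arrest were described in TKPTS cells, an immortalized mouse proximal tubule epithelial line that the sample labels call TKPT. The genes were listed by symbol, and no measured value entered the rule, although earlier results of these data were known when the list was made. They are *Trp53*, *Mdm2*, *Cdkn1a*, *Ccng1*, *Bax*, *Bbc3*, *Gdf15*, *Phlda3*, *Cdkn2a* and *Cdkn2b*, 10 of 22063 genes listed, of which 15340 had at least 1 count. All 10 passed the filter on low counts. The study asked which transcripts depend on *Itgb6*, the gene of the β6 subunit of integrin αvβ6, in hypoxic tubule cells. Cells of both groups were transfected, kept at 1% O2 for 24 h and returned to normal oxygen for 12 h. The si-NC group received a scrambled siRNA (genotype label WT, replicates 2 and 3). The si-*Itgb6* group received an siRNA against *Itgb6* (genotype label Itgb6 knockdown, replicates 1 and 3). Nothing in the labels says whether replicates were separate cultures, so the p-values measure only the spread between these libraries. Cells kept in normal oxygen or left untransfected were not analysed here, so levels are those of reoxygenated, transfected cells and no change with oxygen could be measured. The libraries held 15435074 to 17220281 counts.

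The siRNA target did not separate the groups. *Itgb6* was at 16.96 ± 0.73 CPM, which is counts per 1e+06 counts after scaling, in si-NC and 16.9 ± 1.58 in the libraries labelled si-*Itgb6* (SD, n = 2 each), a log2 fold change of -0.0051 with a 95% interval of -0.27 to 0.26. Every direction below is therefore one between libraries labelled si-*Itgb6* and si-NC. The labelled cell type was visible in part. Of 10 proximal tubule markers, *Slc34a1*, *Slc5a2* and *Slc22a6* were at 0 counts in every library, and the 10 summed to 11.5 to 17.4 FPKM, the length-scaled measure that the authors deposited. The 5 markers of simple epithelium summed to 1240 to 1359 FPKM. The 6 macrophage markers summed to 84.5 to 100 FPKM, nearly all of it *Cd68* and *Csf1r*, while *Ptprc* had 0 to 6 counts and *Adgre1* 0 to 1. The 5 fibroblast and 5 endothelial markers each summed to at most 2.07 FPKM.

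p53, encoded by *Trp53*, is a transcription factor held low by the ubiquitin ligase Mdm2, which is itself a p53 target, and released from it by DNA damage and other stress. Its targets stop the cell cycle, of which the best known is the cyclin-dependent kinase (CDK) inhibitor p21 (*Cdkn1a*), or start apoptosis through Bax and Puma (*Bbc3*). The *Cdkn2a* locus encodes p16Ink4a, an inhibitor of CDK4 and CDK6, and p19Arf, which blocks Mdm2, and the neighbouring *Cdkn2b* encodes p15Ink4b, a CDK inhibitor known for its response to TGF-β. In injured tubules, lasting p21 and p16 are markers of arrested cells. TKPTS cells came from a mouse carrying the SV40 large T antigen, a viral protein that binds p53 and the RB proteins.

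The promoter element that p53 binds is shown first, since it is the sequence through which p53 acts on several genes of the list. It is a pair of 10-base repeats. In RefSeq windows of 300 bases (GRCm38.p6), from 250 bases before to 50 after a start, the 10 genes had 15 windows. The p53 response element was searched by its palindromic consensus, which reads the same on both strands, with a spacer of 0 or 1 base. A match with at most 1 mismatch was present for *Cdkn1a*, *Ccng1* and *Bax*, in 3 of the 15 windows, whereas 0.177% of 32851 windows of all genes held one. With at most 3 mismatches the count was 5 of the 15 windows, adding 1 each of *Bbc3* and *Trp53*, and 11.7% of all windows. The best stretch of each of these 5 genes is printed on the strand of the gene, with the matched element in capitals and 20 flanking bases on each side.
Cdkn1a: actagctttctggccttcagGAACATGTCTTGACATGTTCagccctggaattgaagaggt
Ccng1: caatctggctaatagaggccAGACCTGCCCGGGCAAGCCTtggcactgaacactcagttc
Bax: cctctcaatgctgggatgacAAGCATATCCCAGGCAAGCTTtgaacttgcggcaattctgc
Bbc3: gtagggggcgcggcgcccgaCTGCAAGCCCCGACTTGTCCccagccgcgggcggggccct
Trp53: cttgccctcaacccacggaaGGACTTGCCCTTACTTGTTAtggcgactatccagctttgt
The *Cdkn1a* stretch lies at chr17:29090908-29090967 on the plus strand, its element starting 51 bases upstream of 1 of its starts. The window of the other *Cdkn1a* start held no match within 3 mismatches. That of *Ccng1* lies at chr11:40755442-40755501 on the minus strand, 195 bases upstream. The *Bax* stretch, with a spacer of 1 base, lies at chr7:45467070-45467130 on the minus strand, 212 bases upstream. *Bbc3* has its stretch at chr7:16309466-16309525 on the plus strand, 97 bases upstream, and *Trp53* at chr11:69580264-69580323 on the plus strand, 75 bases upstream, both with 3 mismatches. The windows of the other *Bbc3* starts held no match within 3 mismatches. The windows of *Mdm2*, *Phlda3*, *Gdf15*, *Cdkn2a* and *Cdkn2b* held no match within 3 mismatches, which says only that these letters are not in these windows. The transcript levels of the 3 genes with a near-complete element ranged from 23.9 FPKM (*Ccng1*) to 167.6 (*Cdkn1a*), given below.

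All 10 genes were transcribed in every library, with 101 to 5526 counts per gene and library, and their mean FPKM spanned 39.0-fold. *Cdkn1a* was the highest, at 163 and 168 FPKM in si-NC replicates 2 and 3 and 171 and 168 in si-*Itgb6* replicates 1 and 3. That mean of 167.6 was above 97.0% of the genes with a count. *Cdkn2a* followed with 127, 136, 129 and 131 FPKM in the same order of libraries, and *Trp53* with 127, 126, 129 and 117. The values of *Cdkn2a* and *Trp53* overlapped, so their order is not resolved, while every *Cdkn1a* value lay above both. In bulk RNA, many cells with little transcript and few cells with much cannot be told apart. For *Cdkn2a* a single count covers p16Ink4a and p19Arf, which share exons, and the 2 products cannot be told apart here.

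The next genes were spaced by clear steps. *Bax* had 72.3, 73.1, 72.0 and 74.1 FPKM, *Gdf15* 42.3, 40.2, 39.5 and 34.0, and *Ccng1* 23.4, 25.4, 23.3 and 23.6. None of these overlapped its neighbour, and neighbouring means differed by 1.63-fold (*Gdf15* over *Ccng1*) to 1.87-fold (*Bax* over *Gdf15*). *Mdm2*, the p53 target that closes the negative loop, was at 15.3, 14.7, 16.0 and 12.8 FPKM, overlapping *Phlda3* at 13.1, 12.2, 12.7 and 11.9. *Phlda3* encodes a pleckstrin-domain protein that inhibits AKT. The lowest were *Cdkn2b* at 8.57, 9.48, 11.8 and 10.5 FPKM and *Bbc3* at 5.68, 3.62, 3.61 and 4.29, the latter close to the median of 4.52 FPKM over all genes with a count. Count and FPKM of *Bbc3* imply a length of 1651 bases in si-NC replicate 2 and 1814 in each other library. Part of the higher FPKM in that replicate is therefore a matter of length scaling. *Bax* and *Bbc3*, both apoptotic targets of p53, stood at opposite ends of this range below *Trp53*.

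**Figure D1:**
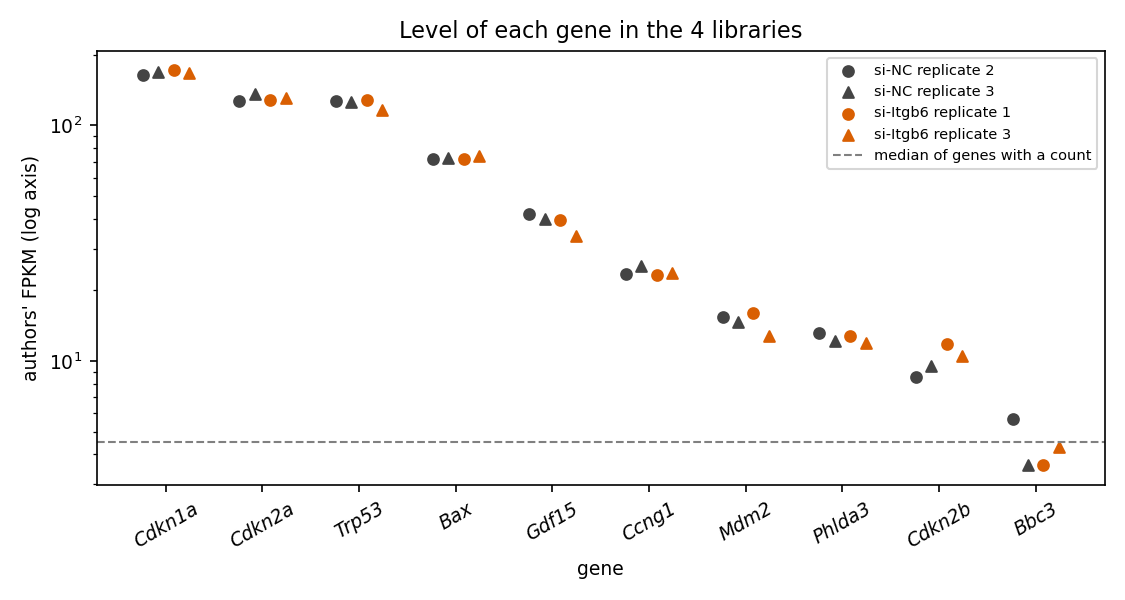
FPKM as deposited, on a log axis, for the 10 genes in each of the 4 libraries (grey, si-NC; orange, si-*Itgb6*; symbols, replicates), ordered by mean level. The order runs from *Cdkn1a* at 167.6 FPKM to *Bbc3* at 4.30, and the dashed line marks the median of 4.52 over genes with a count.

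The high *Cdkn1a* and *Cdkn2a* levels stood beside high levels of genes of dividing cells. *Top2a*, a topoisomerase of replicating cells, averaged 353.6 FPKM and *Cdk1*, the mitotic kinase, 148.1 FPKM, which are the 2 highest of 20 genes repressed through p53, p21 and the DREAM complex. *Mki67*, named here because it is the usual proliferation marker, averaged 91.0 FPKM. Among the inhibitors outside the 10 genes, *Cdkn1b* (p27) averaged 34.1 FPKM and *Cdkn2d* (p19Ink4d) 23.8. Every *Cdkn1b* value lay above those of *Ccng1*, but its libraries overlapped those of *Gdf15*. *Cdkn2d* was not separated from *Ccng1*, whose libraries it overlaps. *Cdk4*, which the Ink4 proteins bind, averaged 125.7 FPKM and *Ccnd3*, its cyclin, 78.0. The p53 relatives *Trp63* and *Trp73* had 0 counts in every library.

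Between the groups, no gene of the 10 passed the test. The edgeR quasi-likelihood test with Benjamini-Hochberg adjustment over 11727 genes called 0 of 10 at an adjusted p under 0.05, against 4.62% of all genes tested (2.52% lower and 2.11% higher in si-*Itgb6*). At an unadjusted p under 0.05 the count was 1 of 10, against 18.4% of all genes. DESeq2 and the other settings with all libraries also called 0. DESeq2 left 3 of the 10 genes (*Bbc3*, *Cdkn2b* and *Phlda3*) without an adjusted p, so it could not call them. The median log2 fold change of the 10 was -0.028, beside 0.000172 over all genes, and the median absolute change was 0.042, beside 0.12. The 10 genes held at least 101 counts per library, whereas the filter admits genes near 10 counts. The absolute medians are therefore not matched for level. By the fitted change 7 genes were below 0 and 3 above. The 95% intervals lay within 1.5-fold for 9 genes, all but *Cdkn2b*, and within 1.2-fold for 6 (*Trp53*, *Cdkn1a*, *Mdm2*, *Ccng1*, *Bax* and *Cdkn2a*). A p that misses the threshold does not show equal levels, and the intervals give what size of change remains possible. In 4 of 10 genes (*Cdkn1a*, *Gdf15*, *Bax* and *Cdkn2b*) the CPM of the groups did not overlap, a share of 40% against 49.2% of all genes tested.

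The p53 gene and its inhibitor were near 0. *Trp53* (chr11:69580359-69591873, plus strand; positions of whole genes are from GENCODE vM21, GRCm38) was at 223.8 ± 1.25 CPM in si-NC and 219.2 ± 12.3 in si-*Itgb6* (SD, n = 2 each), a log2 fold change of -0.030 (SE 0.057, 95% interval -0.15 to 0.085). Of the 4 libraries, si-*Itgb6* replicate 3 was the lowest, with 3466 counts, and the groups overlapped. *Mdm2* (chr10:117688875-117710758, minus strand) was at 46.0 ± 1.15 and 44.6 ± 6.51 CPM, a log2 fold change of -0.044 (interval -0.24 to 0.15). Here the 2 si-*Itgb6* libraries were the highest and the lowest of the 4. Without si-*Itgb6* replicate 3 the fitted change was 0.029 for *Trp53* and 0.10 for *Mdm2*, so the sign of both turned without that library. The sign of *Trp53* also turned with all libraries once GC content and length were corrected for (0.029).

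The p53 targets *Cdkn1a* and *Ccng1* also kept close to 0. *Cdkn1a* (chr17:29090976-29100727, plus strand) was at 314.5 ± 7.67 CPM in si-NC and 323.8 ± 2.44 in si-*Itgb6*, with 5041 and 5526 counts in si-NC and 5038 and 5302 in si-*Itgb6*. Both si-*Itgb6* libraries were above both si-NC libraries in CPM, but the log2 fold change was 0.042 (SE 0.052, interval -0.064 to 0.15). In FPKM the groups of *Cdkn1a* overlapped, and its exons overlap those of *AC167363.2* on the opposite strand, which libraries without strand cannot separate. *Ccng1*, which encodes cyclin G1, a recruiter of the phosphatase PP2A to Mdm2 (chr11:40748552-40755311, minus strand), was at 85.3 ± 5.22 and 82.7 ± 1.79 CPM with a log2 fold change of -0.043 (interval -0.19 to 0.11). The 2 si-NC libraries of *Ccng1* differed more from each other than the group means did.

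The apoptotic genes differed in precision. *Bax*, the pore-forming effector at the mitochondrion (chr7:45461697-45466898, minus strand), was at 64.7 ± 0.83 and 65.9 ± 0.67 CPM, a log2 fold change of 0.025 (interval -0.13 to 0.18). The annotated exons of *Bax* overlap those of *Gm45808* on the same strand, and in 3 libraries the estimate for *Bax* was a fractional number, so its value is uncertain. *Bbc3* (chr7:16308393-16318205, plus strand) was at 7.93 ± 1.96 and 7.21 ± 0.97 CPM, with 152 and 113 counts in si-NC and 101 and 130 in si-*Itgb6*. Its groups overlapped and its interval of -0.55 to 0.28 around -0.13 was the widest of the 10. In fold terms that interval runs from 0.685 to 1.21, with the fewest counts of the 10 genes and si-NC replicates at 9.32 and 6.54 CPM.

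Among the other p53 targets, *Gdf15*, which encodes a secreted stress cytokine of the TGF-β superfamily (chr8:70629393-70632456, minus strand), had 984 and 993 counts in si-NC and 882 and 818 in si-*Itgb6*. Its level was 58.9 ± 2.01 and 53.3 ± 5.16 CPM, with both si-*Itgb6* libraries below both si-NC libraries. The log2 fold change of -0.14 (interval -0.32 to 0.028) did not pass (edgeR adjusted p = 0.374), and it ranged from -0.25 to -0.045 when 1 library was left out, its size resting on si-*Itgb6* replicate 3. *Phlda3* (chr1:135766119-135769136, plus strand) was at 18.0 ± 0.86 and 17.7 ± 0.64 CPM, with a log2 fold change of -0.027 (interval -0.28 to 0.23) and overlapping groups.

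*Cdkn2b* had the largest fitted change of the 10, in the direction of higher in si-*Itgb6*, while the fitted change of *Cdkn2a*, its neighbour on chromosome 4, was near 0. *Cdkn2b* (chr4:89306299-89311039, minus strand) had 193 and 227 counts in si-NC and 253 and 243 in si-*Itgb6*, or 12.5 ± 0.93 and 15.6 ± 1.12 CPM (SD, n = 2 each). Both si-*Itgb6* libraries were above both si-NC libraries in CPM and in FPKM. The fold change was 1.24 (log2 0.31, SE 0.14, 95% interval 0.026 to 0.60), with an unadjusted p of 0.0335 in edgeR's quasi-likelihood test. It failed the correction over all genes (edgeR adjusted p = 0.221, range 0.183 to 0.258 over the other edgeR settings with all libraries). DESeq2 gave *Cdkn2b* no adjusted p. It was the only one of the 10 past the study's thresholds of an unadjusted p under 0.05 with a fold change over 1.2, and 1 of 10 is close to the 9.57% of all genes past them (4.37% in the higher direction). Leaving out 1 library gave 0.24 to 0.40 on the log2 scale. With groups that do not overlap, that step could hardly change the sign, so the kept sign adds no support. *Cdkn2a* (chr4:89274471-89294653, minus strand) was at 116.1 ± 5.86 and 115.3 ± 2.94 CPM, a log2 fold change of -0.0099 (interval -0.15 to 0.13). The difference between the changes of *Cdkn2b* and *Cdkn2a* was not tested.

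**Figure D2:**
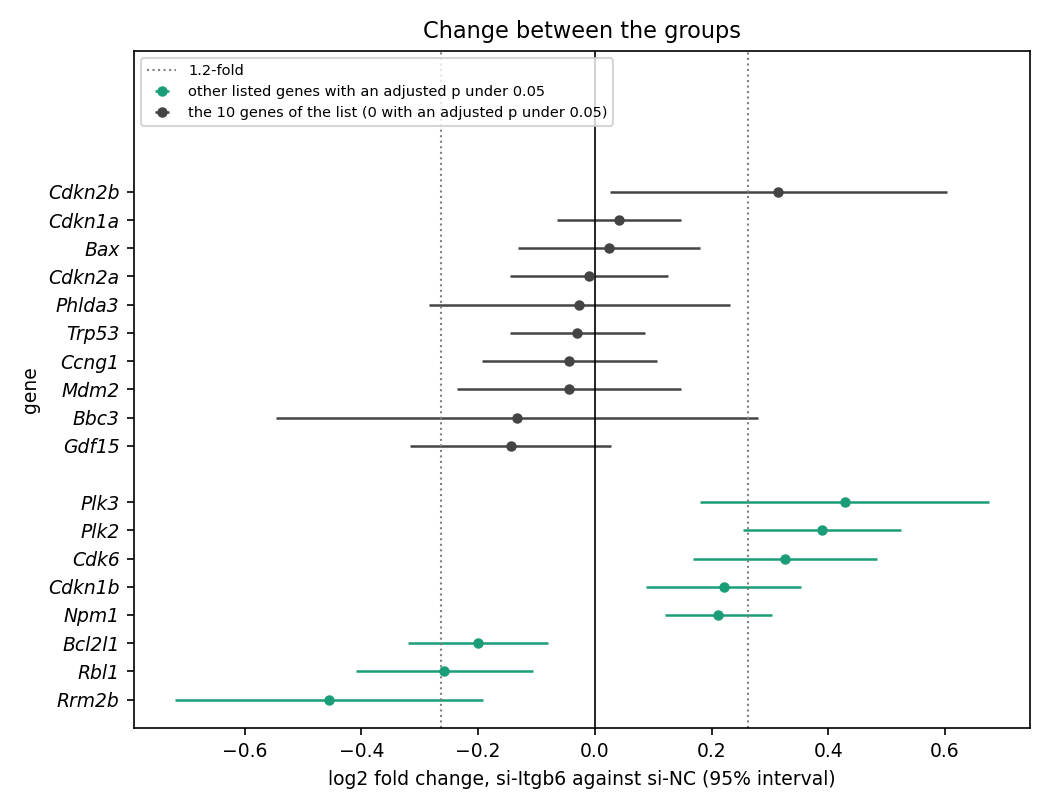
Log2 fold change of si-*Itgb6* against si-NC with its 95% interval for the 10 genes (dark) and for the 8 other listed genes with an adjusted p under 0.05 (green), dotted lines marking 1.2-fold. The interval of *Cdkn2b*, 0.026 to 0.60, is the only one of the 10 that leaves out 0.

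**Figure D3:**
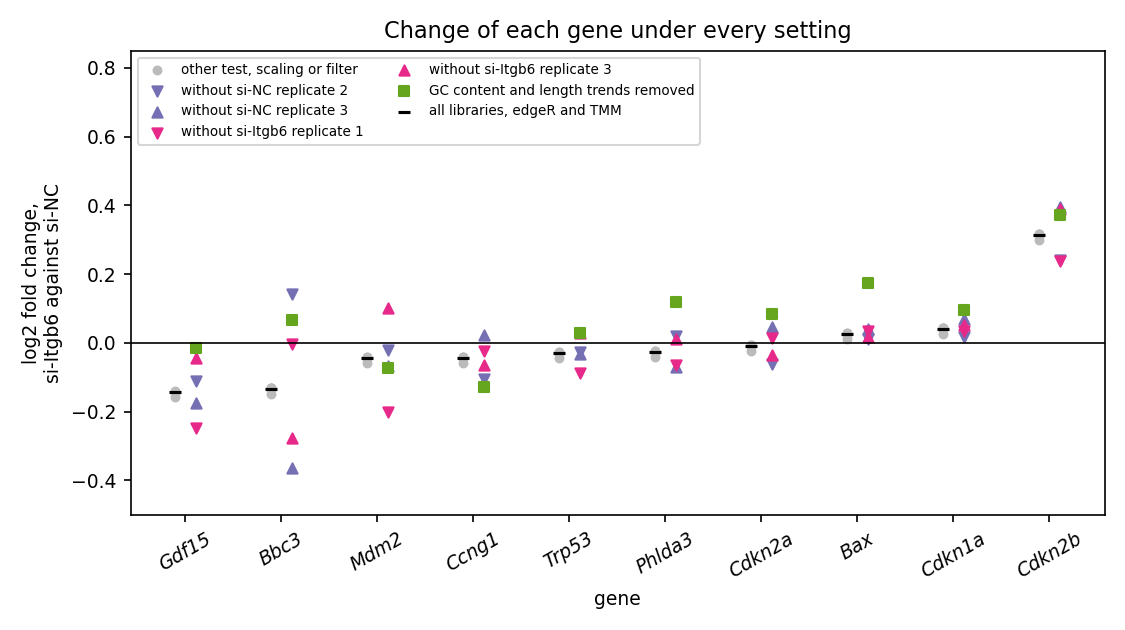
Log2 fold change of each of the 10 genes under every setting tried: black dashes for all libraries, triangles for 1 library left out, green squares for the fit corrected for GC content and length, grey for other tests, scalings and filters. *Cdkn1a*, *Bax* and *Cdkn2b* stay above 0 and *Gdf15* below it under each setting, while the other 6 genes change sign under at least 1 setting, *Mdm2* and *Ccng1* only where a library is left out. The genes that keep their sign are those whose groups did not overlap in CPM, so leaving out 1 library could hardly change it.

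The change of a gene went with its GC content across the table (Spearman's rho -0.364 over 11709 genes, which are not independent replicates). With GC content and length corrected for, *Trp53*, *Cdkn2a*, *Bbc3* and *Phlda3* moved from below to above 0, at 0.029, 0.083, 0.067 and 0.12, and *Gdf15* came to -0.014. *Cdkn2b* came to 0.37, with an edgeR adjusted p of 0.183. The part of GC content in the group difference was not tested further.

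The rest of the pathway was read from 6 lists holding 116 other genes, of which 108 were tested and 8 were called (3 lower and 5 higher, 7.41% beside 4.62% of all genes). Of 38 other p53 targets 34 were tested, and 3 were called, with a list median of 0.010. *Plk2*, a polo-like kinase of the stress response, rose from 122.4 ± 12.6 to 160.4 ± 1.46 CPM (log2 0.39, SE 0.067, edgeR adjusted p = 0.000465). *Plk3*, a related kinase, rose from 19.2 ± 2.17 to 25.9 ± 1.88 CPM (log2 0.43, edgeR adjusted p = 0.0355), with an edgeR adjusted p of up to 0.0600 over the other settings, and its exons overlap those of *Tctex1d4* on the opposite strand. *Rrm2b*, the p53-induced ribonucleotide reductase subunit, fell from 19.6 ± 0.37 to 14.3 ± 1.02 CPM (log2 -0.46, edgeR adjusted p = 0.0365), and it overlaps *Gm49085* in the same way. DESeq2 gave no adjusted p for *Plk3* and *Rrm2b*. Of the 2 highest in the list, *Rps27l* at 152.8 FPKM had a log2 fold change of 0.013 and *Gpx1*, a glutathione peroxidase at 151.2 FPKM, of -0.11, neither called.

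Of 22 regulators and partners of p53, 20 were tested and only *Npm1* was called. *Npm1* encodes nucleophosmin, a nucleolar protein that binds p19Arf, and rose from 4332 ± 71.8 to 5017 ± 430 CPM (log2 0.21, edgeR adjusted p = 0.00379). It had the highest level of the list, at 3726 FPKM, ahead of *Rpl5*, a ribosomal protein that binds Mdm2, at 1355 FPKM and a log2 fold change of 0.077. Corrected for GC content and length, *Npm1* had a log2 fold change of 0.12 and an edgeR adjusted p of 0.112.

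All 5 other CDK inhibitors were tested, and *Cdkn1b* rose from 122.7 ± 6.18 to 143.1 ± 7.79 CPM (log2 0.22, edgeR adjusted p = 0.0449). That call was lost with DESeq2 (adjusted p = 0.0680) and after the GC and length correction (log2 0.17, edgeR adjusted p = 0.161). Of 19 G1 cyclins, CDKs and members of the RB and E2F axis, all tested, 2 were called. *Cdk6*, the kinase that p16Ink4a and p15Ink4b inhibit, rose from 75.5 ± 3.34 to 94.7 ± 10.4 CPM (log2 0.33, edgeR adjusted p = 0.0101). After the GC and length correction it had a log2 fold change of 0.26 and an edgeR adjusted p of 0.0546. In FPKM the groups of *Cdk6* overlapped and the means went the other way, 32.9 in si-NC and 29.1 in si-*Itgb6*. Its exons overlap *Gm17590* on the opposite strand. *Rbl1*, which encodes the RB relative p107, fell from 99.8 ± 6.79 to 83.4 ± 6.16 CPM (log2 -0.26, edgeR adjusted p = 0.0389, and 0.0818 with DESeq2). *Cdk4* and *Ccnd3*, the highest of the list, had log2 fold changes of -0.019 and -0.13.

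The genes repressed when p53 and p21 act through the DREAM complex gave 0 calls among 20 tested by edgeR's quasi-likelihood test, against 4.62% of all genes. At an unadjusted p under 0.05 in that test there were 6 of the 20, in both directions, against 18.4% of all genes. The list had a median log2 fold change of 0.0030 and a range of -0.18 to 0.14. *Top2a*, the highest, had a log2 fold change of 0.14 with an edgeR adjusted p of 0.0529, which ranged from 0.0123 (edgeR with no filter on low counts) to 0.235 (after the GC and length correction) over the other settings with all libraries. *Top2a* was thus called under some of them, DESeq2 included (adjusted p = 0.0240). *Cdk1* had 0.085. Of 12 BCL2 family partners of Bax and Puma 10 were tested, with a median of -0.034. *Bcl2l1*, which encodes the anti-apoptotic Bcl-xL, fell from 191.6 ± 8.15 to 166.7 ± 2.55 CPM (log2 -0.20, edgeR adjusted p = 0.0442). It lost the call with DESeq2 (adjusted p = 0.0610) and after the GC and length correction (log2 -0.12, edgeR adjusted p = 0.305). *Bak1*, the other pore-forming effector and the next highest at 50.3 FPKM, had a log2 fold change of -0.090. Without si-NC replicate 2 none of the 8 called genes of these lists passed, and *Plk2* then had a log2 fold change of 0.29 and an edgeR adjusted p of 0.218. Without si-NC replicate 3 *Plk2* alone of the 8 passed. Without si-*Itgb6* replicate 1 *Plk2*, *Npm1* and *Rbl1* passed, and without si-*Itgb6* replicate 3 all but *Rbl1* did.

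**Figure D4:**
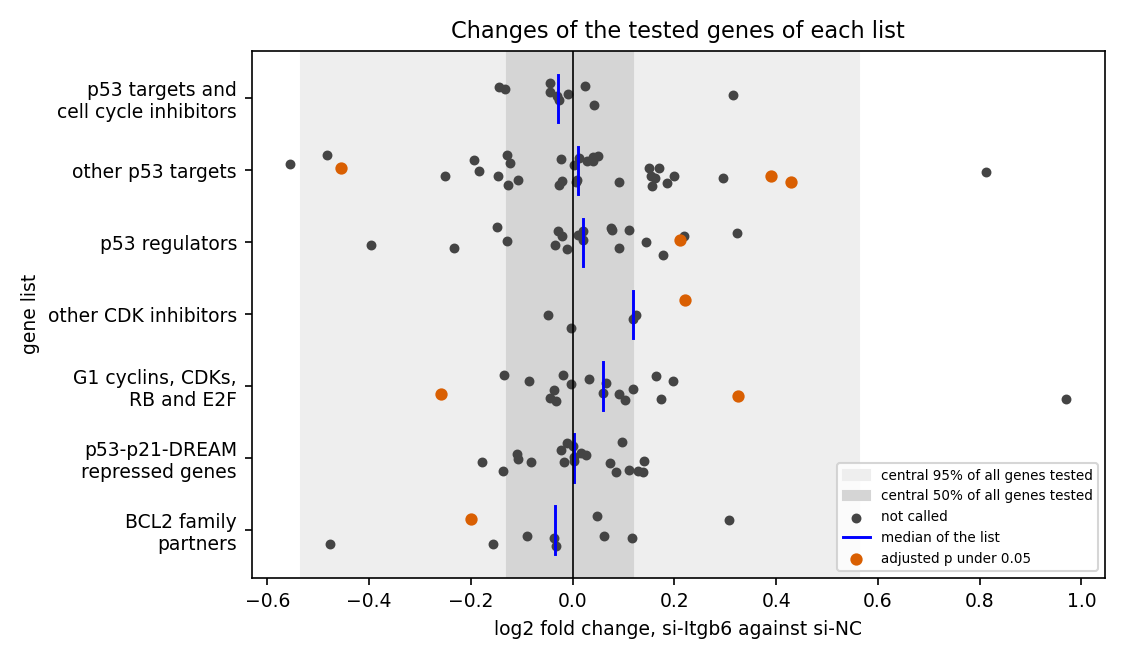
Log2 fold change of each tested gene in the 10-gene list and in the 6 related lists, with called genes in orange, list medians as blue lines and the central 50% and 95% of all genes as grey bands. The 10 genes lie near 0 apart from *Cdkn2b*, *Gdf15* and *Bbc3*, and the list medians lie between -0.034 and 0.12.

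Marker genes that moved with the groups are given as values. The simple epithelium markers summed to 1359 and 1338 FPKM in si-NC and 1240 and 1252 in si-*Itgb6*. Of the 5 fitted changes 4 were below 0 and 1 above (median log2 -0.14), and 2 genes were called, in opposite directions. *Krt8*, a keratin, fell (log2 -0.20, edgeR adjusted p = 0.00881), while *Cldn1*, a tight junction claudin, rose (log2 0.25, edgeR adjusted p = 0.0355). After the GC and length correction neither passed, with edgeR adjusted p of 0.201 and log2 -0.11 for *Krt8* and 0.273 and log2 0.16 for *Cldn1*. Neither passed without si-NC replicate 2 (edgeR adjusted p = 0.322 and 0.471) or without si-NC replicate 3 (edgeR adjusted p = 0.144 and 0.134), nor *Cldn1* without si-*Itgb6* replicate 3 (edgeR adjusted p = 0.0865). *Aqp1*, a water channel of the proximal tubule, rose (log2 0.59, edgeR adjusted p = 0.000617), with a log2 fold change of 0.48 and an edgeR adjusted p of 0.148 without si-NC replicate 2. The macrophage markers summed to 92.7 and 100 FPKM in si-NC and 93.2 and 84.5 in si-*Itgb6*. The library si-*Itgb6* replicate 1 held 22 counts of *Col1a1*, 14 of *Col3a1* and 11 of *Lyz2*, where each other library had 0 to 2. Their part in the values above was not tested.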

How the data were processed

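Total RNA of 4 cell line libraries was enriched for poly(A) RNA and sequenced as paired reads without strand. The authors deposited, per gene and library, estimated counts (1447 to 1500 genes per library are not whole) and FPKM. The aligner, counter and genome build are not given in the sources used here. FPKM was used for levels between genes and for the summed levels of markers, and to describe but not to test group differences. Counts were rounded, genes were kept by filterByExpr (minimum count 10, total 15; 11727 genes), scaled by TMM, and tested with edgeR 4.0.16 in R 4.3.3 by the quasi-likelihood test, si-*Itgb6* against si-NC with no covariate and Benjamini-Hochberg adjustment. CPM uses the same scaling. An exact permutation of 2 against 2 libraries cannot go below p = 0.333. Replicates differed by more than sampling noise (chi-square per gene 3.21 and 4.04). Alternatives were the exact and likelihood ratio tests, DESeq2 1.42.0, other scalings and filters, lowess offsets on GC content and length, each library left out, and the study's thresholds. Positions follow GENCODE vM21 (GRCm38), which held 99.6% of the gene identifiers. Named were the 10 genes, *Itgb6*, every called gene of the 6 lists and the 2 with the highest FPKM in each. *Mki67*, *Trp63*, *Trp73* and single markers were named after their values were seen. The 10 genes and the lists were chosen with earlier results of these data known. Intervals cover the spread between libraries. With 1 library left out, the lone sample is assumed to vary like the other group.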

Additional observations from a re-analysis of the deposited data

How the results depend on the processing

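The 10 genes were called 0 times under each of the tests, scalings and filters, and 1 time (*Cdkn2b*) by the study's thresholds. DESeq2 gave *Bbc3*, *Cdkn2b* and *Phlda3* no adjusted p, so its 0 calls say nothing about these genes. Of 120 fitted changes, 108 kept their direction and 12 reversed it, none of them called. Corrected for GC content and length, the log2 fold change was 0.029 for *Trp53*, 0.067 for *Bbc3*, 0.083 for *Cdkn2a* and 0.12 for *Phlda3*. With 1 library left out, *Trp53* ranged from -0.089 to 0.029 and *Mdm2* from -0.20 to 0.10, both above 0 without si-*Itgb6* replicate 3. *Bbc3* ranged from -0.36 to 0.14, above 0 without si-NC replicate 2, and *Ccng1* from -0.11 to 0.024, above 0 without si-NC replicate 3. *Cdkn2a* ranged from -0.061 to 0.046, above 0 at 0.046 without si-NC replicate 3, and at 0.015 when si-*Itgb6* replicate 1 was left out, and *Phlda3* from -0.072 to 0.021, above 0 at 0.021 without si-NC replicate 2, and at 0.013 when si-*Itgb6* replicate 3 was left out. The cause was not tested. Over all genes 542 were called, 302 with DESeq2 (156 lower, 146 higher), 219 corrected for GC content and length (104 lower, 115 higher) and 1122 by the study's thresholds. By library size only 298 were lower and 173 higher, beside 295 and 247. Leaving out 1 library gave 13 (without si-NC replicate 2) to 781 calls (without si-*Itgb6* replicate 1), and 222 without si-NC replicate 3. Of the related lists 8 genes were called. DESeq2 called 4 (*Plk2*, *Npm1*, *Cdk6* and *Top2a*, the last not among the 8) and gave *Plk3* and *Rrm2b* no adjusted p. Corrected for GC content and length 4 were called (*Plk2*, *Plk3*, *Rrm2b* and *Rbl1*), and 0 (without si-NC replicate 2) to 9 with 1 library left out, the count without si-NC replicate 3 being 1. CPM in place of FPKM left 7 of the 10 genes with the lower mean in si-*Itgb6*. No paired analysis was possible because the groups share fewer than 2 replicate numbers. The fewest counts of the 10 genes were those of *Bbc3*, 101 to 152, which also had a wide spread between si-NC replicates.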
